A study of Mus musculus with 6 samples.

Results

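The 42 genes described here encode the enzymes and transporters that carry glucose to pyruvate and lactate, the pentose phosphate pathway, and the neighbouring glycogen and glycerol phosphate reactions. They were chosen by gene symbol, and every probe set annotated to one of these symbols, alone or among several, was taken. This gave 84 of the 36899 probe sets on 3 array types named SubA, SubB and SubC. Of the 42 genes, 38 had a probe set, and Gpi1, Pfkfb1, Eno1 and G6pdx were not analysed here.

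The arrays compared cultured mouse CD8+ T cells of 2 kinds, called central memory (CM) and effector/effector memory (E/EM) in the labels. All cells came from female P14 mice, which carry a transgenic T cell receptor for a peptide of lymphocytic choriomeningitis virus, on the C57Bl/6 background, and the mice's age is not given. Unpurified spleen and lymph node cells received that peptide for 2 days and then a cytokine for 7 days, IL-15 for CM cells and IL-2 for E/EM cells. CM cells were then sorted for a high and E/EM cells for a low amount of a surface marker, so both kinds share the peptide, the receptor and the culture time and differ in cytokine and sort gate together. Total RNA of each kind was hybridised to 1 array of each type, 6 arrays in all. The 3 array types carry different probe sets, and no label tells if the arrays of a kind held the same RNA, or if animals were pooled. There were therefore no replicates, no test and no p-value, and every value describes these arrays.

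Glucose enters T cells through facilitative transporters, is trapped by hexokinase and committed by phosphofructokinase, and is split and oxidised to pyruvate with a net gain of ATP. Lactate dehydrogenase turns pyruvate into lactate, which leaves with a proton through monocarboxylate transporters. The pentose phosphate pathway branches off at glucose-6-phosphate and yields NADPH and ribose phosphate for biosynthesis. In T cells, activation and IL-2 are known to raise glucose uptake and lactate release, and resting memory cells are known for lower glycolytic rates.

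Most of the glycolytic genes gave a weaker signal in CM than in E/EM cells, while the pentose phosphate genes gave similar signals in both, apart from Rpe, whose probe sets disagreed. The glucose transporter gene Slc2a3 stood furthest from equality, with a mean log2 ratio (CM signal divided by E/EM signal) of -2.09 ± 0.47 (SD, 3 probe sets). Hexokinase Hk2, lactate dehydrogenase Ldhb and the lactate transporter Slc16a3 were the other genes at least 2-fold lower in CM cells. A negative log2 ratio means a lower signal in CM cells. A ratio was taken where a probe set lay above its table's floor on both arrays, the floor being the higher 90th percentile of the bacterial control probe sets (31.28 on SubA, 88.12 on SubB, 194.34 on SubC). A gene's value is the mean over its probe sets, and a gene given without an SD was measured by 1 probe set.

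A ratio could be taken for 35 of the 42 genes, among them 26 measured by 1 probe set. Of the 35, 27 lay below 0, which is 77.1%, against 50.3% of all 10946 measured genes. At least 2-fold lower were 4 (11.4%), against 5.61% of all measured genes, and 0 were at least 2-fold higher, against 2.73%. At a log2 size of 0.58, which is 1.5-fold, 12 were lower (34.3%), against 14.1% of all genes, and 0 were higher, against 10.3%. The median log2 ratio over the 35 genes was -0.27, beside -0.0025 over all measured genes. Among genes with a mean signal of at least 1000, the 21 measured pathway genes had a median of -0.43 and the 2973 genes of that strength in all had 0.05. Under 1000 the contrast was smaller, with -0.14 for 14 pathway genes and -0.03 for all 7973 genes. There 1 pathway gene (7.14%) was at least 2-fold lower, close to the 6.43% of all genes of that strength. By probe set, 40 of the 49 measured single-symbol probe sets lay below 0 (81.6%), against 49.7% of all measured probe sets, and 8 were at least 2-fold lower (16.3%), against 5.89%. The genes were chosen with earlier results of these arrays known, so these shares describe them and are no independent evidence.

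**Figure D1:**
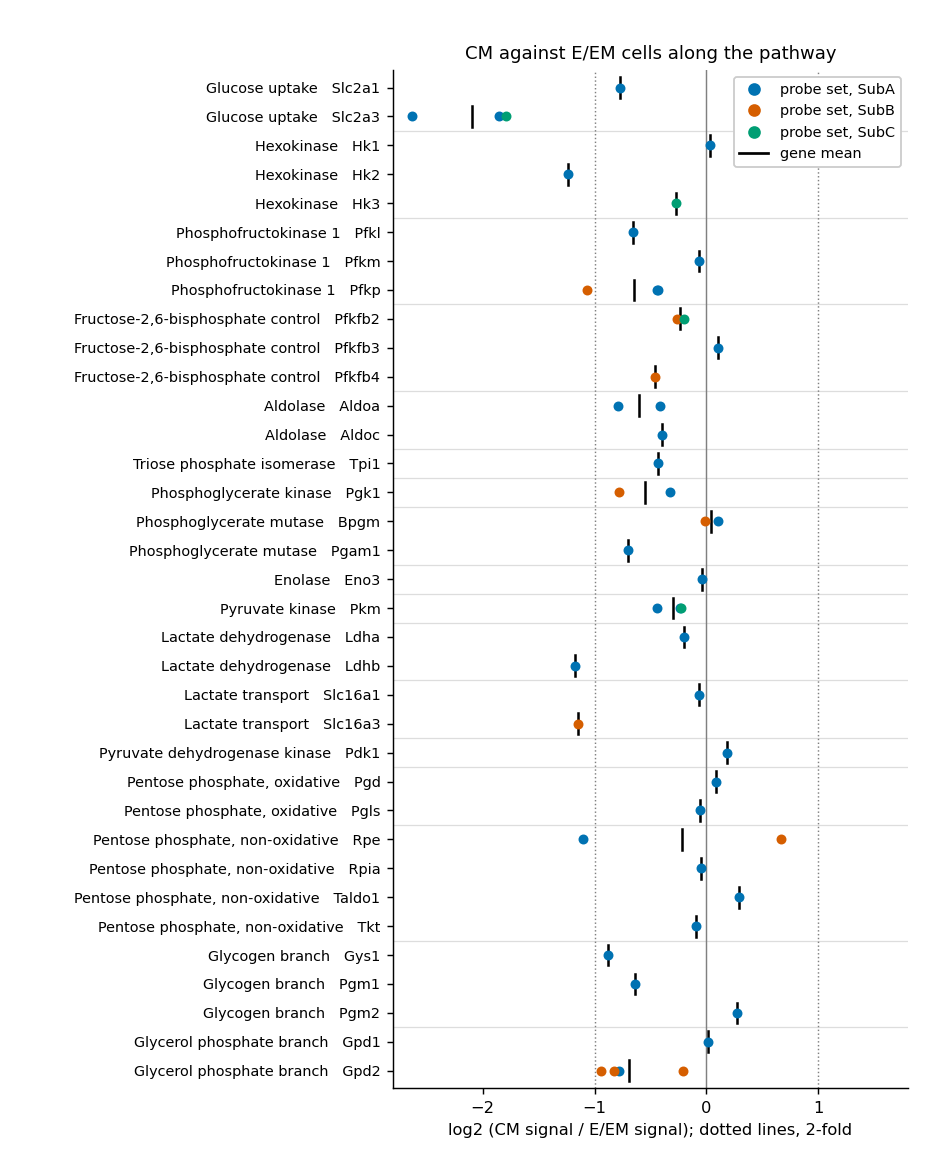
Log2 of CM divided by E/EM signal (x axis) for the 35 measured genes in pathway order from glucose uptake at the top, with 1 point per probe set coloured by array type and a black bar at the gene's mean. The points of Slc2a3 lie between -2.63 and -1.79, those of the pentose phosphate genes lie near 0 apart from Rpe, and the highest gene mean is 0.29, of Taldo1.

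**Figure D2:**
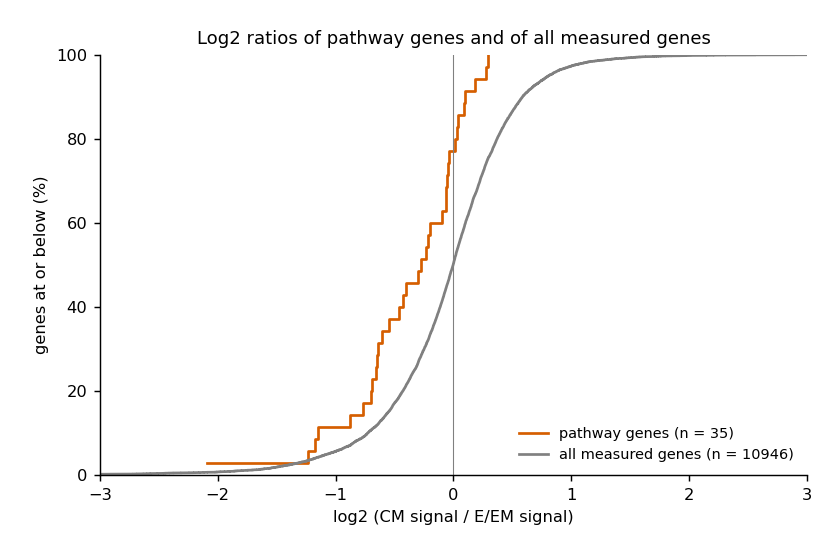
Share of genes (y axis, percent) at or below each log2 of CM divided by E/EM signal (x axis) for the 35 measured pathway genes and all 10946 measured genes. At 0 the pathway curve stands at 77.1% and the curve of all genes at 50.3%.

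The error of these ratios could be judged only technically. Probe sets of the same gene differed with a median SD of 0.32 log2 over the 4094 genes with at least 2 measured probe sets, and of 0.32 over the 9 such pathway genes. Control probe sets printed on all 3 array types gave a further measure, since the same probes were read on each pair of arrays. Over 32 of them above the floor throughout, the ratio had a median SD of 0.24 between array types. Log2 ratios within 0.32 of 0 are therefore no larger than the spread between probe sets of a gene. In the 9 genes with several measured probe sets, 7 had every probe set on the same side of 0. The share over all 4094 such genes was not counted, so this describes the 9 genes only.

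Facts of the arrays that touch these values are few. The mean signal without the lowest and highest 2% was between 499.3 and 499.9 on the 6 arrays, and between 47.1% and 69.1% of probe sets lay above the floor. The T cell genes Cd8a, with 5882.7 in CM and 5133.8 in E/EM cells, and Cd3e, with 6545.6 in CM and 7095.9 in E/EM cells on SubA, had strong signals in both kinds. Of 10 listed CD8 T cell genes 9 were measured, with a median log2 ratio of -0.01 and a summed signal of 64797 in CM and 64754 in E/EM cells. The 9 genes were not all equal, with 5 below and 4 above 0. They ran from -0.72 for Cd3g, with 3079.7 in CM and 5083.7 in E/EM cells, to 0.50 for Cd8b1, with 12298.3 in CM and 8709.3 in E/EM cells. Summed signals of other cell types' markers were 659.5 in CM and 647.1 in E/EM cells for 6 of 7 listed B cell genes, and 803.1 in CM and 861.1 in E/EM cells for 10 myeloid genes, of which 5 lay at or under the floor. The 5 measured B cell genes had a median log2 ratio of -0.32, with 3 below and 2 above 0. Much of their sum came from Cd79b, with 370.9 in CM and 284.0 in E/EM cells. The 5 measured myeloid genes had a median log2 ratio of -0.50, with 4 below 0, among them Cd68 at -1.16 and Cd14 at -0.63. The summed signals were 1350.9 in CM and 1635.2 in E/EM cells for 7 dendritic cell and class II genes. They were 723.8 in CM and 746.4 in E/EM cells for 6 stromal and endothelial genes. For 5 of 7 erythroid genes they were 640.7 in CM and 957.7 in E/EM cells. The 4 measured erythroid genes had 2 below and 2 above 0, with a median log2 ratio of 0.08. A SubC probe set of Slc4a1 had 324.9 in CM and 689.0 in E/EM cells, and its SubA probe set 50.0 in CM and 37.5 in E/EM cells. Such sums can mix array types, whose floors differ, and they include probe sets under the floor. In the class II list H2-Ab1 had -1.29, H2-Eb1 -1.23, Cd74 -0.74 and Flt3 -0.19, while H2-Aa had 0.34 and Itgax 1.60. Ciita was above the floor in E/EM cells alone. The natural killer list, 2 of 4 genes, had 86.7 in CM and 468.9 in E/EM cells. Nearly all of that came from 1 probe set of Cd244a, with 85.1 in CM and 451.7 in E/EM cells, and Ncr1 lay at or under the floor. The helper T cell list, 3 of 4 genes, had 234.2 in CM and 1148.8 in E/EM cells. Most of its E/EM sum came from Zbtb7b, while Cd4 itself had 131.7 in CM and 49.3 in E/EM cells. The 18S ribosomal RNA control had log2 ratios between -1.504 and -0.229 over its 9 values on the 3 array types. The part of these markers and of that control in the pathway values was not tested. Fewer cells that carry a transcript and less of it per cell cannot be told apart in such bulk RNA.

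The stretch before the transcription start is shown for Hk2, Slc16a3 and Slc2a1, which were lower in CM cells, and for Ldha, whose ratio was near 0, because the core of the hypoxia response element, the motif bound by hypoxia-inducible factors, is known from several of these promoters. Each is the 250 bases before an annotated start, 5′ to 3′ on the gene's strand, from RefSeq on GRCm38.p6. They lie at chr6:82774455-82774704 on the minus strand for Hk2, and on the plus strand at chr11:120948817-120949066 for Slc16a3, chr4:119108495-119108744 for Slc2a1 and chr7:46845554-46845803 for the first of the windows of Ldha. Capitals mark ACGTG or GCGTG on either strand, so the reverse strand reads CACGT or CACGC.
Hk2: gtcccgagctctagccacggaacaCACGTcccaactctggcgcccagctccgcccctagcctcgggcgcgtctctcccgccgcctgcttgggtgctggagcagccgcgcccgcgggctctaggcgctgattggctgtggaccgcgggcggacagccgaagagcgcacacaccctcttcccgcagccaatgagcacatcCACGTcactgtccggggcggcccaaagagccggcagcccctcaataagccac
Slc16a3: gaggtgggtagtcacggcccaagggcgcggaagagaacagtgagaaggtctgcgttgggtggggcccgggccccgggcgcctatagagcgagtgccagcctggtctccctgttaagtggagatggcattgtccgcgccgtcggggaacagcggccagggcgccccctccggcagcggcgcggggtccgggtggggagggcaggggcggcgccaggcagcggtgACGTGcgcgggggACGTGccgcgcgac
Slc2a1: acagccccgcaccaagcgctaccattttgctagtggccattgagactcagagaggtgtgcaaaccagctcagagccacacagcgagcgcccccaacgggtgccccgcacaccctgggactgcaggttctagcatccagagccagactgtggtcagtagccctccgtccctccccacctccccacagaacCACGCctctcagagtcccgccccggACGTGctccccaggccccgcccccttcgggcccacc
Ldha: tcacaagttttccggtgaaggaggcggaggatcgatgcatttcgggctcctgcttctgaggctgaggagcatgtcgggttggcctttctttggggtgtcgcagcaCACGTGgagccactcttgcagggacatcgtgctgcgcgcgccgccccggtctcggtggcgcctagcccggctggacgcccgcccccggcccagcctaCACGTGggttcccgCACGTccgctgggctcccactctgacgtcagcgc

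Hk2 and Slc16a3 each held 2 matches to ACGTG and none to GCGTG, and Slc2a1 held 1 of each. The window of Ldha held 5 matches to ACGTG, because each of its 2 copies of CACGTG, an E-box that overlaps the motif, counts on both strands. Promoter windows were found for 40 of the 42 genes, 60 windows in all, since a gene can have several starts and their windows can overlap. ACGTG was in 33.3% of them, against 16.6% of all 32851 windows of the same length, and GCGTG in 48.3%, against 28.2%. The windows of these genes were also richer in G and C, with a median of 57.8% against 52.4%, and shares at equal base composition were not compared. Of the 12 genes with a log2 ratio of -0.58 or lower, 11 had a window and 7 of these held ACGTG. Of the other 23 measured genes, 22 had a window and 9 held it. GCGTG went the other way, in 5 of the 11 genes and 15 of the 22. Either motif was in 10 of the 11 and 19 of the 22, and CACGTG in 0 of the 11 and 5 of the 22. Genes differed in their number of windows. By window, ACGTG was in 57.1% of the 14 of the lower genes and 35.3% of the 34 of the others, and GCGTG in 35.7% and 52.9%. By window, either motif was in 78.6% and 76.5%, against 38.6% of all windows, and CACGTG in 0% and 14.7%, against 6.02%. The median share of G and C was 63.4% in the windows of the lower genes and 57.2% in those of the others. A match is a run of letters only and says nothing of whether a factor binds there.

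The transcript signals of Slc2a3 and Slc2a1, the glucose transporters among the 42 genes, were both lower in CM cells. Slc2a3 (GLUT3), a high-affinity glucose transporter, had signals of 462.6 in CM and 1672.5 in E/EM cells on one SubA probe set. On the other SubA probe set the signals were 654.8 in CM and 4055.4 in E/EM cells. On SubC they were 850.6 in CM and 2946.7 in E/EM cells. All 3 probe sets were thus lower in CM cells, by 3.62-fold, 6.19-fold and 3.46-fold, and 2 array types show the same direction. This SubC probe set carries a suffix for shared probes, and without it the mean log2 ratio was -2.24, from the 2 SubA probe sets. A further SubC probe set had 113.4 in CM cells, under the floor, and 284.7 in E/EM cells, which gives a difference of at least 1.46-fold. Only 0.649% of all measured genes had a log2 ratio as low as that of Slc2a3. Slc2a1 (GLUT1), the widely expressed basal transporter, had a signal of 821.9 in CM and 1401.8 in E/EM cells, a log2 ratio of -0.77.

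Hexokinases, which phosphorylate glucose and so keep it in the cell, differed among themselves. Hk2, the inducible isoform, had 1369.6 in CM and 3222.6 in E/EM cells, 2.35-fold lower in CM cells with a log2 ratio of -1.23. A second Hk2 probe set lay far under the floor in both kinds, at 3.5 in CM and 3.6 in E/EM cells. Hk1, the constitutive isoform, had 13414.0 in CM and 13145.3 in E/EM cells, a log2 ratio of 0.03. The log2 ratio of Hk2 was lower than that of Hk1 by a difference of -1.26, with 1 measured probe set for each. The median SD of 0.32 between probe sets of a gene is for single ratios and holds no spread between cultures. It therefore cannot judge this difference. Hk3, the isoform best known from myeloid cells, had a log2 ratio of -0.27 on SubC.

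Phosphofructokinase 1 catalyses the committed step and is a tetramer of muscle, liver and platelet type subunits. Pfkl, the liver type subunit, had 2497.7 in CM and 3948.6 in E/EM cells, a log2 ratio of -0.66. Pfkp, the platelet type, had 1899.9 in CM and 2567.7 in E/EM cells on its first SubA probe set, and 4160.8 in CM and 5670.0 in E/EM cells on its second. Its SubB probe set had 532.9 in CM and 1118.4 in E/EM cells. The mean log2 ratio of Pfkp was -0.65 ± 0.36 (SD, 3 probe sets), and without the SubB probe set it was -0.44. Pfkm, the muscle type, had a log2 ratio of -0.07, so Pfkl and Pfkp were lower in CM cells and Pfkm was nearly equal.

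The bifunctional enzymes of the PFKFB family set the level of fructose-2,6-bisphosphate, the main activator of phosphofructokinase 1. None of the 3 measured passed 1.5-fold, against 14.1% of all measured genes lower and 10.3% higher. Pfkfb4 had a log2 ratio of -0.46 and Pfkfb2 -0.23 ± 0.05 (SD, 2 probe sets). Pfkfb3, the isoform known for a high kinase activity, had 0.10. A second Pfkfb3 probe set was just above the floor in CM cells alone, at 34.5, with 17.6 in E/EM cells. Fbp1, the gluconeogenic fructose-1,6-bisphosphatase that runs the reverse reaction, lay under the floor in both kinds of cells, with 6.4 in CM and 6.1 in E/EM cells.

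From aldolase to pyruvate kinase the differences were smaller and mostly in the same direction. Of 8 measured genes 7 had a ratio below 0 (87.5%), against 50.3% of all measured genes, and of the 7, Pkm and Eno3 lay within 0.32 of 0. None passed 2-fold, against 5.61% of all measured genes lower and 2.73% higher, and 8 genes are too few to set apart from these shares. Their median was -0.42. Aldoa, the aldolase that splits fructose-1,6-bisphosphate in most tissues, had 13247.1 in CM and 17673.5 in E/EM cells on one probe set. On its other probe set it had 4284.3 in CM and 7431.1 in E/EM cells, and the mean log2 ratio was -0.61 ± 0.27 (SD, 2 probe sets). Pgam1, the phosphoglycerate mutase, had 5716.8 in CM and 9269.5 in E/EM cells, a log2 ratio of -0.70. Pgk1, an ATP-yielding kinase of the pathway, had -0.55 ± 0.32 (SD, 2 probe sets), with -0.32 on the bright SubA probe set and -0.78 on a SubB probe set only 1.44 times the floor in CM cells. Triose phosphate isomerase Tpi1 had -0.43 and Aldoc -0.40. Pyruvate kinase Pkm, the last ATP-yielding step, had -0.30 ± 0.12 (SD, 3 probe sets on 2 array types), all of them below 0.

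The remaining genes of this stretch were nearly equal or weak. Bpgm, the bisphosphoglycerate mutase best known from red cells, had 0.04 ± 0.08 (SD, 2 probe sets), and the muscle type enolase Eno3 had -0.04. Eno2, the neuron type enolase, had 24.0 in CM cells, under the floor, and 55.7 in E/EM cells, at least 1.78-fold lower in CM cells. Aldoa, Pgk1, Pgam1, Pkm and Ldha have processed copies in mammalian genomes, and 6 of the probe sets of Aldoa, Pgk1 and Pkm carry a suffix for shared probes, so each value may hold signal of a copy.

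**Figure D3:**
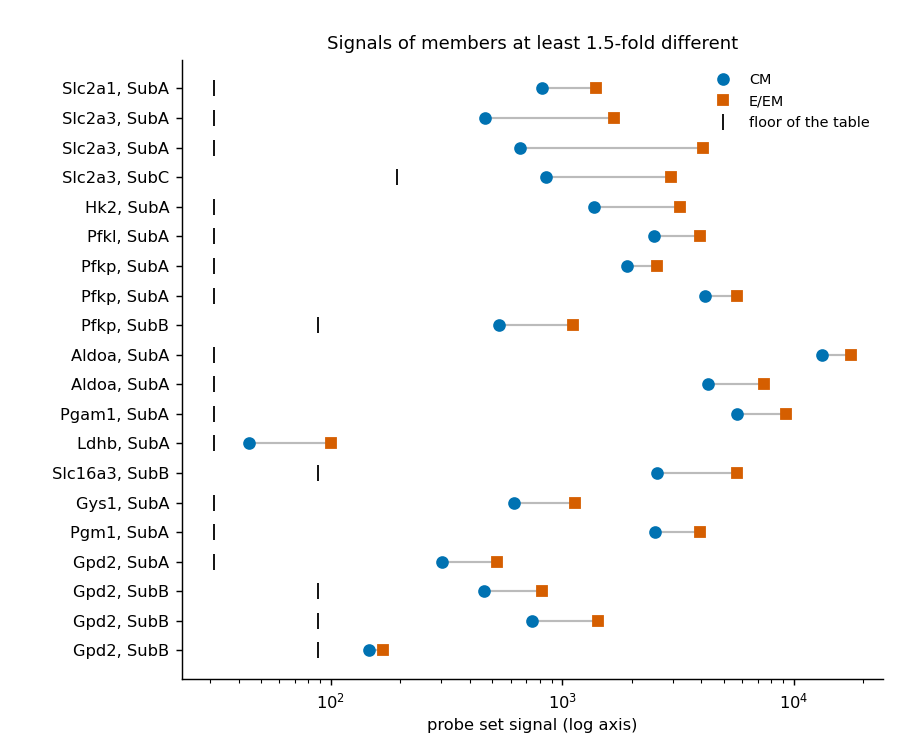
Signal of each measured probe set (x axis, log scale) in CM and E/EM cells for the 12 genes with a log2 ratio of at least 0.58 in size, with the floor of the table as a black tick. In each of the 20 probe sets the CM point lies left of the E/EM point, and Ldhb and 1 Gpd2 probe set lie closest to the floor.

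Gapdh, which oxidises glyceraldehyde-3-phosphate, had no probe set of its own beyond the controls printed on all 3 array types. Its 3 sense-strand control probe sets had signals between 19623 and 22352 in CM and between 21898 and 24859 in E/EM cells on SubA. These controls had a mean log2 ratio of -0.16 ± 0.04 for SubA, -0.14 ± 0.22 for SubB and 0.21 ± 0.03 for SubC (SD, 3 probe sets each). The 9 antisense-strand controls of Gapdh, which read the opposite strand, gave only 58.2 to 1033.7 in CM and 12.8 to 641.6 in E/EM cells. The sense-strand ratios thus lay on both sides of 0 by array type, and no direction can be given for Gapdh. Of the probe sets that Gapdh shares with other symbols, the brightest had 15612.3 in CM and 22665.5 in E/EM cells. A SubC probe set shared with Gapdh-ps15, a pseudogene, had 889.5 in CM and 201.0 in E/EM cells, a log2 ratio of 2.15 with an E/EM signal only 1.03 times the floor, and the last had a log2 ratio of 0.10.

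**Figure D4:**
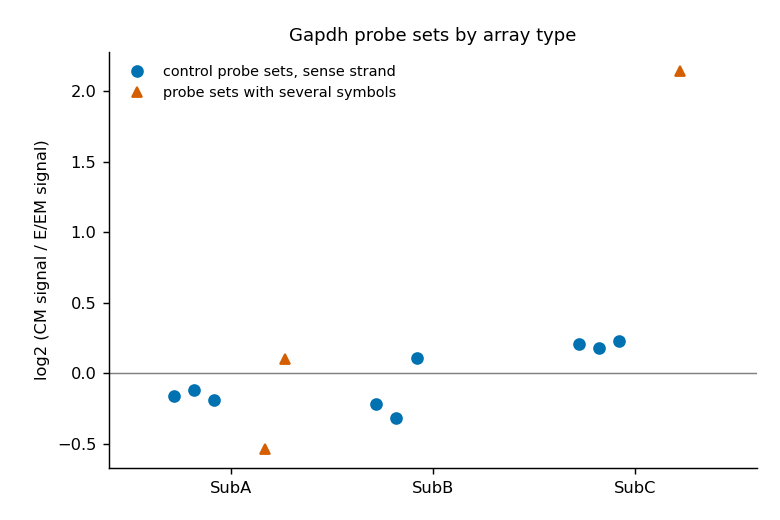
Log2 of CM divided by E/EM signal (y axis) of the Gapdh probe sets by array type (x axis), with circles for the 3 sense-strand control probe sets and triangles for probe sets annotated to several symbols. The circles average -0.16 on SubA, -0.14 on SubB and 0.21 on SubC.

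At the lactate end, the signal of one transporter was lower in CM cells and that of the other nearly equal. Slc16a3 (MCT4), a proton-coupled transporter known for lactate export from glycolytic cells, had 2571.4 in CM and 5708.9 in E/EM cells. That is 2.22-fold lower in CM cells, a log2 ratio of -1.15, from 1 SubB probe set. Slc16a1 (MCT1), which carries lactate in either direction, had -0.07. Ldha, the lactate dehydrogenase subunit favoured in glycolytic cells, had 16252.8 in CM and 18647.3 in E/EM cells, a log2 ratio of -0.20 and so within the spread between probe sets. Ldhb, the heart type subunit, had 44.3 in CM and 99.9 in E/EM cells, a log2 ratio of -1.17. Its CM signal was only 1.42 times the floor, and its other probe set lay under the floor in both kinds, so the size of that ratio is uncertain. Pdk1, a kinase that inhibits pyruvate dehydrogenase and so keeps pyruvate from the mitochondrion, had 0.18.

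The pentose phosphate genes showed no common direction. Of 7 listed genes 6 were measured, with a median of -0.05. Of the 6, 4 lay below 0 (66.7%), against 50.3% of all measured genes, and 2 above. None was at 1.5-fold, against 14.1% of all measured genes lower and 10.3% higher, and 6 genes are too few to set apart from these shares. In the oxidative branch, which makes NADPH, 6-phosphogluconate dehydrogenase Pgd had 0.09 and the lactonase Pgls -0.06, while a SubB probe set that Pgls shares with Niban3 lay under the floor in both kinds. A second Pgd probe set had 12.5 in CM cells, under the floor, and 45.6 in E/EM cells. In the non-oxidative branch, which interconverts sugar phosphates, transketolase Tkt had -0.10, ribose-5-phosphate isomerase Rpia -0.05 and transaldolase Taldo1 0.29, the highest of the 35 genes. Rpe, the ribulose phosphate epimerase, had 1384.0 in CM and 869.9 in E/EM cells on SubB but 36.9 in CM and 79.3 in E/EM cells on SubA, where the CM signal was 1.18 times the floor. Its mean of -0.22 ± 1.25 (SD, 2 probe sets) therefore has no settled direction.

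The side branches split by gene. Gys1, the glycogen synthase of muscle and most other tissues, had 617.1 in CM and 1132.2 in E/EM cells, a log2 ratio of -0.88, and its SubC probe set was above the floor in E/EM cells alone. Pgm1, the phosphoglucomutase that links glucose-6-phosphate with glycogen, had 2528.8 in CM and 3939.2 in E/EM cells, a log2 ratio of -0.64. Pgm2 had 0.27. Both Pgm symbols follow the current assignment by gene identifier, since older mouse literature used them the other way round. Gpd2, the mitochondrial glycerol-3-phosphate dehydrogenase of the shuttle that passes cytosolic reducing equivalents to the respiratory chain, was measured by 4 probe sets. It had 302.1 in CM and 520.9 in E/EM cells on SubA. On SubB the brightest probe set had 742.7 in CM and 1426.8 in E/EM cells, the next 459.0 in CM and 815.3 in E/EM cells, and the weakest 145.8 in CM and 169.1 in E/EM cells. All 4 were lower in CM cells, with a mean log2 ratio of -0.69 ± 0.33 (SD, 4 probe sets), and another probe set, with 36.1 in CM and 163.8 in E/EM cells, was above the floor in E/EM cells alone. Gpd1, the cytosolic partner enzyme, had 0.01, and its other probe set lay under the floor in both kinds.

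Within several steps, then, one gene was lower in CM cells and another nearly equal. Several of the nearly equal genes had weak signals on SubA, where the floor was 31.28. Slc16a1 had 154.6 in CM and 161.9 in E/EM cells, and Pgm2 had 167.4 in CM and 138.4 in E/EM cells. Gpd1 had 123.2 in CM and 122.0 in E/EM cells, and Bpgm 172.2 in CM and 160.8 in E/EM cells. Pfkm had 341.6 in CM and 357.7 in E/EM cells. The part of weak signal in their ratios was not tested. The log2 ratio of Slc16a3 differed from that of Slc16a1 by -1.08, that of Pgm1 from Pgm2 by -0.91, that of Pgam1 from Bpgm by -0.74, that of Gpd2 from Gpd1 by -0.71 and that of Pfkl from Pfkm by -0.59. Slc2a3 and Slc2a1, both lower, differed by -1.32, and Aldoa and Aldoc, both lower, by only -0.21. Hk3 differed from Hk1 by -0.30, and Ldhb, near the floor, from Ldha by -0.97. These differences compare ratios, not levels, of genes, and were picked as the lower against the higher gene of each pair. With 1 array per kind they were not tested.

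A wider list of 49 further genes of glucose, glycogen, pentose and lactate metabolism gave a weaker picture. Of 26 measured genes 16 lay below 0 (61.5%), against 50.3% of all measured genes, and their median was -0.11. At least 2-fold lower in CM cells were 2 (7.69%), against 5.61% of all measured genes, and 0 were 2-fold or more higher, against 2.73%. At 1.5-fold, 6 were lower (23.1%), against 14.1%, and 2 were higher (7.69%), against 10.3%. The 2 higher genes, named with their values known, were Gpd1l, related to cytosolic glycerol-3-phosphate dehydrogenase, at 0.80 ± 0.37 (SD, 3 probe sets), and Shpk, the sedoheptulose kinase that feeds the pentose phosphate pathway, at 0.63. Slc2a10, a transporter of the same family, had 293.1 in CM and 719.1 in E/EM cells, a log2 ratio of -1.29. Pygm, the muscle type glycogen phosphorylase, had 141.3 in CM and 286.6 in E/EM cells, a log2 ratio of -1.02. Its SubC probe set lay under the floor in both kinds. With a bound only, Slc2a4 (GLUT4), the insulin-responsive transporter, had 88.9 in CM cells and 18.6, under the floor, in E/EM cells, at least 2.84-fold higher in CM cells. The other probe set of Slc2a4 lay under the floor in both kinds. Pklr, the pyruvate kinase of liver and red cells, had 72.7 in CM and 22.8 in E/EM cells on one probe set, at least 2.32-fold higher in CM cells, but lay under the floor in both kinds on its other probe set. Both bounds rest on CM signals under 3 times the floor.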

How the data were processed

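The deposited tables, 1 for each array type, hold the linear intensity of each probe set in 1 CM and 1 E/EM column. No source used here gives the authors' software or scaling. The arrays' trimmed means lie close to 500 on each array, and no further normalization was applied. Symbols came from GEO's platform annotation, and the Entrez identifiers of all 38 symbols found matched the same symbol in a RefSeq table of GRCm38.p6. No build is named for the probe sets.

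Gene values used the 62 probe sets with 1 symbol and no control function, of which 49 were above the floor on both arrays, 5 in E/EM cells alone, 1 in CM cells alone and 7 on neither. A gene above the floor in 1 kind only is given as at least N-fold, signal over floor. Genes with a log2 ratio of at least 0.58 in size are given with all signals. The genes, lists and alternatives were chosen with earlier results of these data known. The calculation was tested on simulated data (Python 3.11.15, pandas 2.3.3, numpy 2.4.6). The number of arrays limits the precision.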

Additional observations from a re-analysis of the deposited data

How the results depend on the processing

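In all, 10 alternatives were tried: quantile normalization, centring each table, the floor halved or doubled, the brightest probe set, leaving out probe sets marked as shared, adding those with several symbols, SubA alone, SubA and SubB without SubC, and a 3-fold rule. The median over measured pathway genes stayed between -0.32 and -0.17. The number at least 2-fold lower in CM cells stayed between 3 and 5, with 0 higher, in all but the 3-fold rule. Under that rule 1 gene (Slc2a3) was lower. Over all measured genes the values moved too, with a median between -0.02 and 0.03. The share of all genes at least 2-fold lower lay between 4.12% and 7.63%, and that at least 2-fold higher between 2.09% and 3.91%. The share of all genes past 3-fold is not given here. Ldhb had -0.999, just under 2-fold, after quantile normalization and no ratio with the floor doubled, and with the floor halved Eno2 joined the genes at least 2-fold lower. On SubA alone the number was also 4, but Slc16a3 had no ratio and Rpe, at -1.10, took its place. Of 307 single-gene values 6 changed sign, in Bpgm, Gpd1, Hk1, Rpe and Slc16a1, which all lay near 0 except Rpe. For the 26 genes with 1 measured probe set, alternatives that change the floor or choice of probe sets mostly return the same value by construction. The small number of sign changes therefore says little about how firm the single values are. Slc2a3 ranged from -2.63 to -1.90, and Pfkfb3 reached 0.54 with the floor halved. No paired analysis was possible because each kind of cell had 1 array per type.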

Other observations

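The control probe sets for Pcx, pyruvate carboxylase, which turns pyruvate into oxaloacetate, are printed on all 3 array types and were picked here with their values already known. The 3′ probe set had 106.8 in CM and 550.2 in E/EM cells on SubA, 214.6 in CM and 1262.4 in E/EM cells on SubB, and 937.1 in CM and 3087.5 in E/EM cells on SubC. It was lower in CM cells on each array type, with log2 ratios of -2.37, -2.56 and -1.72. The 5′ probe set of the same gene had smaller differences, with log2 ratios of -0.72, -1.05 and -0.86.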
